A study of Mus musculus with 9 samples.

Results

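Dbp, Tef, Hlf, Nfil3, Ciart, Bhlhe40, Bhlhe41 and Usp2 are output genes of the circadian clock. Their messages were followed in the brain of wild-type mice and of mice with a Huntington's disease transgene, each given a control virus. Another group was mice with that transgene given a WNT5B virus. The 8 genes are a named list out of 21853 genes measured, and all 8 passed the filter on low values. They were chosen by name with their measured differences between these same 3 groups known, so their levels and differences are a description. No p-value of theirs is given, and the number of them past the limma threshold is printed only beside the share of all genes past it.

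Poly(A) RNA was sequenced in 9 libraries, 3 per group, and each value is a normalized number of reads per gene. The WT-Control group was wild-type mice given pAAV-GFAP(pro)-Control-mCherry, an adeno-associated virus that carries the reporter mCherry behind the promoter of the astrocyte gene GFAP. The HD-Control group was N171-82Q mice, which express an N-terminal piece of mutant huntingtin from a transgene, given the same control virus. The HD-WNT5B group was N171-82Q mice given pAAV-GFAP(pro)-WNT5B-P2A-mCherry, so that all 9 libraries came from mice with a virus and mCherry. There was no wild-type group with the WNT5B virus and no group without a virus. The virus went into the striatum per the series text, and the labels call the tissue brain. The labels give neither the hour of tissue collection nor age, sex or the animal each library came from, so p-values measure only the spread between libraries, which may be technical.

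The clock is a loop in which CLOCK and BMAL1 (Arntl) bind E-box sequences and switch on Per and Cry genes, whose proteins then hold CLOCK and BMAL1 back. The loop drives output genes that carry its rhythm to the rest of the genome. Dbp, Tef and Hlf encode the PAR bZIP activators, which bind D-box sequences, and Nfil3 encodes a repressor that binds the same sequences. Ciart, Bhlhe40 and Bhlhe41 encode repressors that act on CLOCK and BMAL1 or their E-boxes, and Usp2 encodes a rhythmic deubiquitinase with clock proteins among its substrates. Because most of these messages cycle over the day, the hour of collection bears on every level given here, and whether it differed between the groups was not tested.

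The promoters of 7 of the 8 genes were found in RefSeq (GRCm38.p6), and Bhlhe40 is named only. The 250 bases before each start were searched on both strands for the E-box CACGTG, its variant CACGTT, the D-box core TTATGTAA and the ROR element core TAGGTCA, of which no pair can match at the same position. Ciart had 3 copies of CACGTG, starting 116, 58 and 44 bases before the start, and only 20 of 32851 promoters (0.0609%) held 3 or more. Bhlhe41 had 1 copy at 153 bases, and Tef had 1 copy in each of its promoters, at 127 and 138 bases. One or more copies stood in 6.02% of all promoters. Nfil3 had a ROR element core on the other strand, 12 bases before the start, a motif in 2.23% of promoters. CACGTT (3.85% of promoters) and TTATGTAA (0.819%) were in none of the members' windows, and Dbp, Hlf and Usp2 had none of the 4 motifs, which says only that these letters are not in these windows. The stretches with a motif are shown because they set apart Ciart, Tef, Bhlhe41 and Nfil3 by sequence, with the motif in capitals, 5′ to 3′ on the gene's own strand.
Ciart, chr3:95882256-95882355, minus strand, outside annotated exons and spanned by the gene model C920021L13Rik: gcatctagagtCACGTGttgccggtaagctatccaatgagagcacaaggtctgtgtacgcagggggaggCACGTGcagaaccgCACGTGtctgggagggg
Tef first promoter, chr15:81802534-81802563, plus strand, within an annotated exon: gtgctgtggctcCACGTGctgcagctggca
Tef second promoter, chr15:81811264-81811293, plus strand, in an intron: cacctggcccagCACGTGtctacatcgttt
Bhlhe41, chr6:145865556-145865585, minus strand, at the 5′ edge of the gene: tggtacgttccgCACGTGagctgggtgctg
Nfil3, chr13:52981040-52981069, minus strand, within an annotated exon, TAGGTCA read from the other strand: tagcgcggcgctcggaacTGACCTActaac
A match is a description and not a bound site. Of the genes with the E-box, Ciart and Bhlhe41 were highest in HD-Control and Tef in HD-WNT5B at the deposited scale, as the values below show. Of the genes with no match, Dbp and Usp2 were highest in HD-WNT5B and Hlf in WT-Control. Whether the match bears on the levels was not tested.

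The libraries labelled HD-WNT5B stood apart from the other 6 across all genes. They held 37.3 to 52.1 M estimated reads against 67.8 to 77.8 M in WT-Control and 69.8 to 90.6 M in HD-Control, and 14291 to 14588 genes above 0 against 17027 to 17349. Their deposited values nevertheless summed to more, 79.9 to 83.8 M against 54.6 to 54.7 M in WT-Control and 55.6 to 55.8 M in HD-Control. The median SD of log2 values between libraries of a group was 0.233 in HD-WNT5B, 0.0393 in WT-Control and 0.0333 in HD-Control (13081 genes). Wnt5b itself was at 184, 22.5 and 212 in HD-WNT5B replicates 1 to 3, against 44.2 to 74.6 in the other 6 libraries, and replicate 2 was below all of them. In estimated reads these were 103, 14 and 99, against 60 to 106 in the other 6. Wnt5b was not called in HD-WNT5B against HD-Control (log2 difference 0.88, SE 0.73, limma adjusted p = 0.298). Whether the virus carried the mouse sequence is not in the labels. Of 15411 genes tested with limma, 45.1% were called in HD-Control against WT-Control, 77.5% in HD-WNT5B against HD-Control and 77.9% in HD-WNT5B against WT-Control (adjusted p under 0.05). The median log2 difference over all genes was 0.02, -0.23 and -0.25 in these comparisons, and scaling the libraries to equal totals moved the last 2 to -0.76 and -0.80. Of the genes called in HD-WNT5B against HD-Control, 46.2% were higher at the deposited scale, 32.2% with equal totals and 55.8% with a trend on transcript length removed, so the clock outputs' differences that involve HD-WNT5B are also given relative to the median gene.

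**Figure D1:**
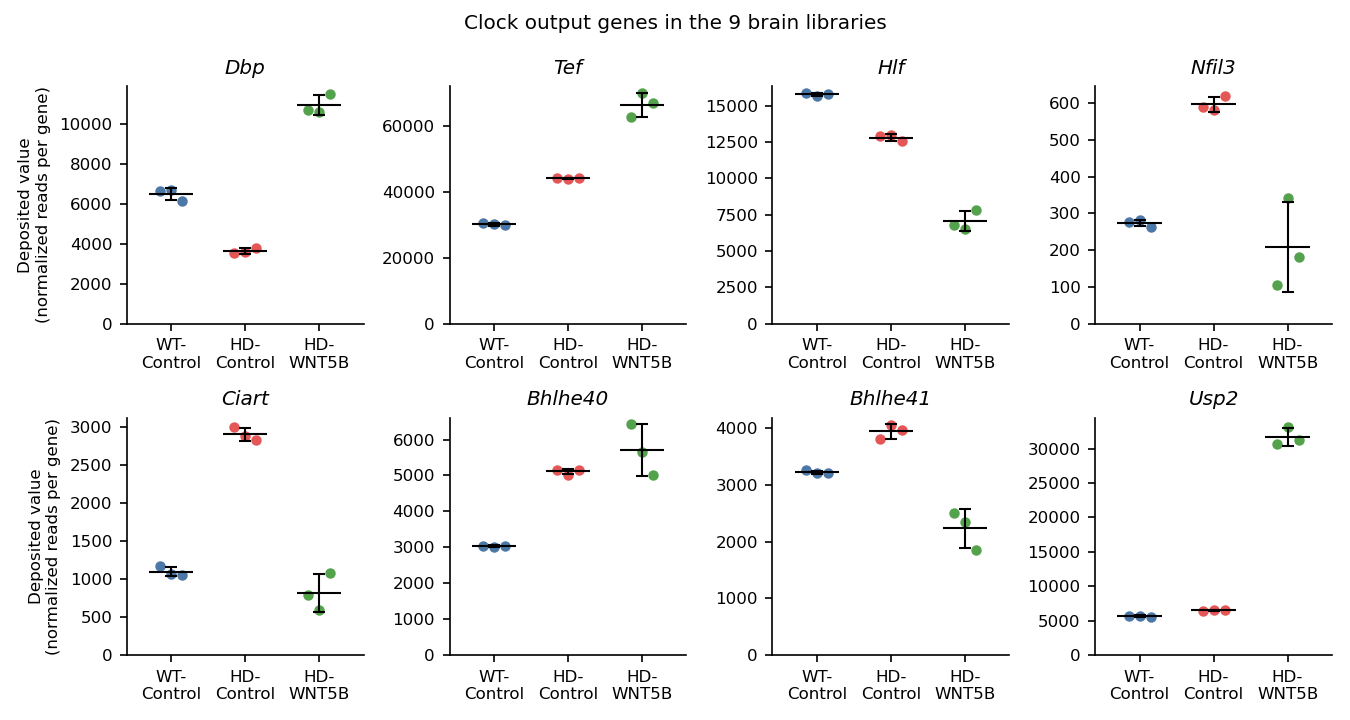
Deposited value (normalized reads per gene, vertical axes from 0) of the 8 clock output genes in each of the 9 libraries. Points are libraries, bars the mean ± SD (n = 3 per group): Dbp was lowest and Ciart and Nfil3 highest in HD-Control, Usp2 and Tef were highest in HD-WNT5B, and Hlf fell in steps from WT-Control to HD-WNT5B.

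Among the PAR bZIP activators, Dbp was at 6626, 6714 and 6141 in the WT-Control libraries, 3511, 3580.0 and 3779 in HD-Control and 10718, 10617 and 11509 in HD-WNT5B. HD-Control was the lowest group and HD-WNT5B the highest, with no overlap between any of the 3. The mean of HD-Control was 0.558 times that of WT-Control, and that of HD-WNT5B was 3.02 times that of HD-Control and 1.69 times that of WT-Control. On the log2(value + 3) scale used throughout, the differences were -0.84, 1.59 and 0.75 in that order, each with an SE of 0.05. With equal totals the last of these was 0.17, and its difference from HD-Control was 1.04. Relative to the median gene, HD-WNT5B stood at 1.82 from HD-Control and 0.998 from WT-Control. Dbp (chr7:45705088-45710203, plus strand, mm10) shares 18.0% of its exon bases with Sphk2 on the opposite strand, and the library kit does not keep strand. Sphk2 was at 1422, 1424 and 1452 in WT-Control, 1154, 1124 and 1119 in HD-Control and 1875, 1285 and 1844 in HD-WNT5B. Its differences from group to group had the signs of those of Dbp and were smaller, at -0.34 (limma adjusted p = 0.0735) and 0.54 (limma adjusted p = 0.00593). The part of Sphk2 reads in the Dbp values was not tested.

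Tef (chr15:81802421-81826863, plus strand) had the highest level per length of the 8 genes in every group. It was at 30519.5, 30102 and 29779.8 in WT-Control, 44155, 43985 and 44102 in HD-Control and 62711, 69928 and 66903 in HD-WNT5B. The groups stood in steps with no overlap, and the HD-Control libraries were close together, at 44081 ± 86.8 (SD, n = 3). HD-Control was 1.46 times WT-Control, and HD-WNT5B was 1.51 times HD-Control and 2.21 times WT-Control. The log2 differences were 0.55, 0.59 and 1.14 (SE 0.04). The step from HD-Control to HD-WNT5B was 0.04 with equal totals, 0.82 relative to the median gene and 1.13 with the length trend removed, so its size rests on the scaling. HD-WNT5B stood at 1.39 from WT-Control relative to the median gene.

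Hlf (chr11:90336536-90390895, minus strand), the last of the PAR bZIP genes, ran the other way. It was at 15829, 15654 and 15823 in WT-Control, 12898.5, 12944 and 12549 in HD-Control and 6774, 6521 and 7829 in HD-WNT5B. Each group lay wholly below the one before it, with log2 differences of -0.30, -0.87 and, between the outer groups, -1.17 (SE 0.06). Hlf has one of the longest transcripts of the 8 genes, at 5642 bases. With the length trend removed, the step from HD-Control to HD-WNT5B was -0.07 and HD-WNT5B stood at -0.33 from WT-Control. These were -0.64 and -0.92 relative to the median gene.

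The makeup of the PAR bZIP messages can be compared within a library, where scaling cancels but a trend on transcript length does not. Per kilobase of longest transcript, Dbp made up 25.9 to 27.6% of the sum of the PAR bZIP genes in WT-Control, 13.4 to 14.4% in HD-Control and 25.3 to 27.4% in HD-WNT5B. The Dbp share in HD-WNT5B overlapped that in WT-Control, and HD-Control lay below both. Tef made up 51.5 to 52.4%, 70.1 to 70.5% and 66.5 to 69.6%, and Hlf 20.9 to 21.7%, 15.6 to 16.1% and 5.07 to 6.07%. The Tef to Hlf ratio thus went from 2.41 to 2.47 in WT-Control through 4.35 to 4.50 in HD-Control to 10.95 to 13.7 in HD-WNT5B. The Tef to Dbp ratio was 1.87 to 2.02, 4.87 to 5.25 and 2.43 to 2.75. Dbp has the shortest transcript of the 8 genes (1837 bases), and its place in HD-WNT5B turns on length. The log2 difference of the Tef to Dbp ratio between HD-WNT5B and HD-Control was -1.002 as deposited and -0.07 with the length trend removed, and against WT-Control it was 0.39 and 1.39. With that trend removed the ratio in HD-WNT5B was thus close to that in HD-Control, and the nearness of the Dbp share in HD-WNT5B to WT-Control did not hold. Between HD-Control and WT-Control the ratio differed by 1.39 and 1.46, and the Tef to Hlf ratio between HD-WNT5B and HD-Control by 1.46 and 1.21, under the same settings. The sum itself was 12911 to 13344, 14226 to 14298 and 21278 to 22848, so in HD-Control a lower Dbp and Hlf stood beside a higher Tef. This sum is not scaled to equal totals. The total of all deposited values was also larger in HD-WNT5B, at 79.9 to 83.8 M against 54.6 to 55.8 M in the other libraries.

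**Figure D2:**
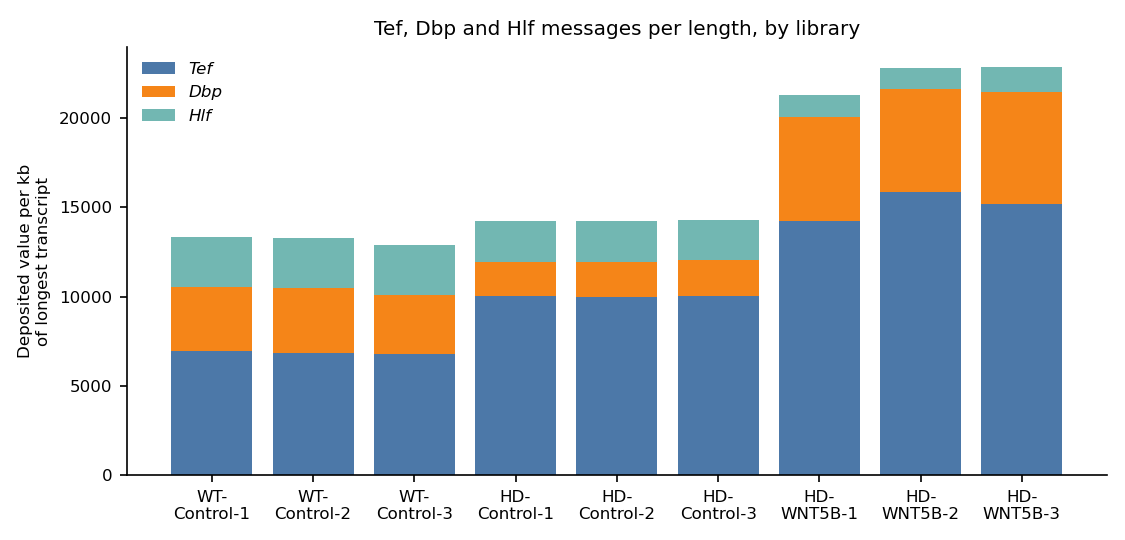
Deposited value per kilobase of longest transcript of Tef, Dbp and Hlf, stacked, in each library (vertical axis from 0). The Dbp segment is smallest in the 3 HD-Control libraries and the Hlf segment in the 3 HD-WNT5B libraries. The stack reaches 21278 to 22848 in HD-WNT5B, where the total of all deposited values was also larger.

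Nfil3 (chr13:52967209-52981073, minus strand), which represses through the D-box that the PAR bZIP factors use, was at 277, 282 and 264 in WT-Control and 591, 581 and 621 in HD-Control. In HD-WNT5B it was at 104, 342 and 180.1, a spread that covers the WT-Control values and stays below HD-Control. HD-Control was 2.18 times WT-Control, a log2 difference of 1.12 (SE 0.36), and HD-WNT5B stood at -1.67 from HD-Control and -0.55 from WT-Control. Nfil3 had the fewest reads of the 8 genes, 58 to 213 estimated reads in the HD-WNT5B libraries against 741 to 1008 in HD-Control. The log2 difference from HD-Control ranged from -2.10 without HD-WNT5B replicate 2 to -1.26 without replicate 1. That from WT-Control ranged from -0.99 to -0.14 with the same libraries left out. It was -1.12 with equal totals and -0.82 with the length trend removed, so its size rests on single libraries and on the scaling. Relative to the median gene the differences were -1.44 and -0.31. The PAR bZIP sum per kilobase was 95.4 to 99.0 times Nfil3 in WT-Control, 46.7 to 49.6 times in HD-Control and 135 to 416 times in HD-WNT5B, so the ratio of activator to repressor messages was lowest in HD-Control.

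Among the E-box repressors, Ciart (chr3:95878503-95882251, minus strand), whose protein binds BMAL1, was at 1168, 1064 and 1058 in WT-Control, 3004, 2876 and 2832 in HD-Control and 783, 586 and 1079 in HD-WNT5B. HD-Control stood alone at the top, and replicate 3 of HD-WNT5B fell within the WT-Control range. HD-Control was 2.65 times WT-Control, the largest ratio of the 8 genes in that comparison, with a log2 difference of 1.40 (SE 0.19). HD-WNT5B stood at -1.87 from HD-Control and at -0.47 from WT-Control, and the latter was -0.25 without HD-WNT5B replicate 2 and -0.69 without replicate 3. Relative to the median gene the differences from HD-Control and WT-Control were -1.64 and -0.22. They were -2.42 and -1.05 with equal totals, and -2.18 and -0.81 with the length trend removed. The size of the difference from WT-Control thus rests on the scaling.

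Bhlhe40 and Bhlhe41 encode a pair of closely related bHLH repressors. Bhlhe40 (chr6:108660629-108666925, plus strand) was at 3046, 3016 and 3040.2 in WT-Control, 5145, 5024.5 and 5163 in HD-Control and 6443, 5660.4 and 5018 in HD-WNT5B. HD-Control lay above WT-Control in every library, at 1.68 times its mean and a log2 difference of 0.75 (SE 0.08), and the HD-WNT5B libraries spread across and above the HD-Control values. The log2 difference between HD-WNT5B and HD-Control was 0.15, it was -0.40 with equal totals and 0.45 with the length trend removed, and so it has no settled sign. Relative to the median gene HD-WNT5B stood at 0.38 from HD-Control and 1.15 from WT-Control. Bhlhe41 (chr6:145858243-145865558, minus strand) was at 3258.5, 3219.8 and 3208 in WT-Control, 3806, 4066 and 3976 in HD-Control and 2499, 2347 and 1855 in HD-WNT5B. Its groups did not overlap, with HD-Control highest and HD-WNT5B lowest, and log2 differences of 0.29, -0.83 and -0.54 (SE 0.10). Bhlhe41 has the longest transcript of the 8 genes (6133 bases), and with the length trend removed the last 2 of these turned to 0.03 and 0.36. They were -0.60 and -0.30 relative to the median gene. Its exons share 19.0% of their bases with the gene model Gm43909. Per kilobase, Bhlhe40 was 1.84 to 1.87 times Bhlhe41 in WT-Control, 2.43 to 2.66 times in HD-Control and 4.75 to 5.33 times in HD-WNT5B. The last step, a log2 difference of 0.98 in the ratio, was 0.42 with the length trend removed.

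Usp2 (chr9:44067021-44095627, plus strand), the deubiquitinase, was at 5736.5, 5709 and 5475.5 in WT-Control, 6389, 6495 and 6568 in HD-Control and 30668, 33151 and 31212 in HD-WNT5B. The small step from WT-Control to HD-Control was 1.15 times, and that from HD-Control to HD-WNT5B was 4.89 times, the largest rise of the 8 genes, with no overlap in either. The log2 differences were 0.20, 2.29 and, between the outer groups, 2.49 (SE 0.04). The step from HD-Control to HD-WNT5B was 1.73 with equal totals and 2.72 with the length trend removed, and 2.25 without replicate 2, the library low in Wnt5b. Relative to the median gene HD-WNT5B stood at 2.52 from HD-Control and 2.73 from WT-Control.

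Set against the background, all 8 genes were called and all 8 were without overlap in HD-Control against WT-Control, where 45.1% of genes were called and 84% did not overlap. Of the 8 called, 6 were higher and 2, Dbp and Hlf, lower, beside 24.5% and 20.7% of all genes. With any 1 of the 6 WT-Control and HD-Control libraries left out, Nfil3 and Bhlhe41 were no longer called, which left 6. No other alternative ended the call of Nfil3, and its log2 difference was 1.09 to 1.135 with 1 library left out. The SE of Nfil3 takes in the HD-WNT5B libraries. There the SD of its log2 values was 0.847, against 0.0475 in WT-Control and 0.0491 in HD-Control. The call of Bhlhe41 ended under 10 of 21 alternatives, 4 of them scalings, a filter or the replicate number as a block. In HD-WNT5B against HD-Control 7 were called (3 higher, 4 lower) and 7 did not overlap, beside 77.5% of genes called (35.8% higher, 41.7% lower) and 78.7% not overlapping. Bhlhe40 was the gene not called there, and the split was 2 higher and 5 lower with equal totals and 4 higher and 2 lower with the length trend removed. In HD-WNT5B against WT-Control 7 were called (4 higher, 3 lower) and 6 did not overlap, beside 77.9% of genes called (35.9% higher, 42.1% lower) and 79.4% not overlapping. Nfil3 was not called there and Ciart was called only at the edge, its call ending under 13 of 21 alternatives. The last split was 4 and 4 with equal totals and 5 higher and 2 lower with the length trend removed. These counts come from the contrasts in which the genes were picked and nothing is read from them. Each pair of these comparisons shares the libraries of 1 group.

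**Figure D3:**
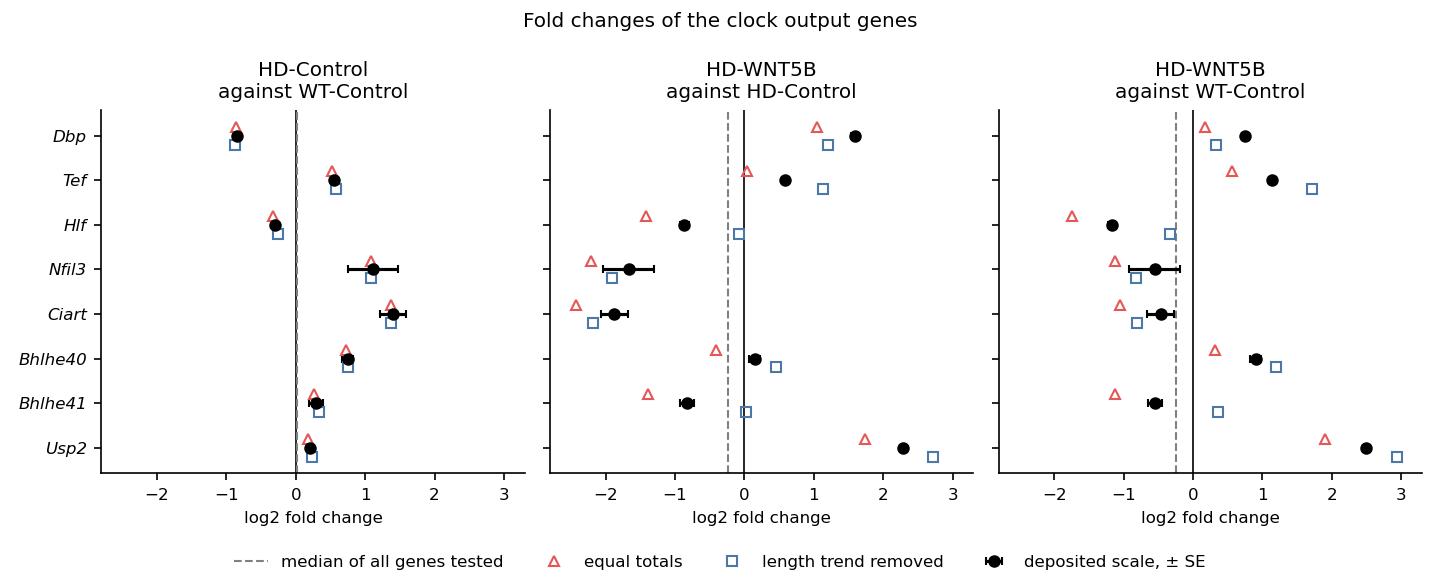
Log2 differences of the 8 genes (horizontal axis) in the 3 comparisons, at the deposited scale (filled points, ± SE), with equal totals (triangles) and with the length trend removed (squares). The dashed line is the median of all genes tested. In HD-Control against WT-Control the 3 versions lie close together, while in HD-WNT5B against HD-Control Hlf and Bhlhe41 move to -0.07 and 0.03 with the length trend removed and Tef to 0.04 with equal totals.

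In order of level per kilobase, Tef led in each group. In WT-Control it was followed by Dbp (3535), Hlf (2795), Usp2 (1459), Bhlhe40 (975), Ciart (566), Bhlhe41 (526) and Nfil3 (135), and no neighbours overlapped. In HD-Control Hlf (2268) came before Dbp (1972), and Usp2 (1677) and Bhlhe40 (1642) overlapped across libraries. Ciart (1498) was then close below them and far above Bhlhe41 (644). In HD-WNT5B Usp2 (8192) moved up to second place, ahead of Dbp (5960) and Bhlhe40 (1833), while Ciart (421) and Bhlhe41 (364) overlapped. The Usp2 to Ciart ratio per kilobase showed the contrast most plainly, at 2.46 to 2.69 in WT-Control, 1.07 to 1.16 in HD-Control and 14.5 to 28.4 in HD-WNT5B. The Dbp to Ciart ratio was 5.99 to 6.66, 1.23 to 1.41 and 11.3 to 19.1.

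Across the 24 core clock genes upstream of these outputs, 17 were called in HD-Control against WT-Control, 14 higher and 3 lower. Of all genes, 45.1% were called there (24.5% higher, 20.7% lower). The median difference of the 24 was 0.32 against 0.02 for all genes. The activators gave 3 higher of 4, and Arntl, which encodes BMAL1, rose by 0.86 (limma adjusted p = 0.0047) while Clock differed by 0.11 (limma adjusted p = 0.18). Clock was at 7314 to 7612 in WT-Control and 8024 to 8080 in HD-Control, without overlap. The repressors gave 3 higher of 5. Per1 was at 7607 to 8264 in WT-Control and 20542 to 20969 in HD-Control, and it rose by 1.39 (limma adjusted p = 6.1e-07). Per2 was at 3684 to 3743 in WT-Control and 5049 to 5268 in HD-Control, a difference of 0.47 that did not pass (limma adjusted p = 0.14). The 1 spread used for all groups takes in the HD-WNT5B libraries. There the SD of log2 Per2 values was 0.585, against 0.0121 in WT-Control and 0.0309 in HD-Control. The ROR and REV-ERB receptors, which act on ROR elements, gave 3 higher and 1 lower of 5. Nr1d2 rose by 0.39 (limma adjusted p = 9.1e-05), and Rorb, also a marker of cortical neurons, fell by 1.10 (limma adjusted p = 4.5e-05). The kinases and ubiquitin ligases, which set the stability of PER and CRY, gave 5 higher and 2 lower of 10, with Csnk1e up by 0.51 (limma adjusted p = 0.00062).

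In HD-WNT5B against HD-Control 19 of the 24 core clock genes were called, 2 higher and 17 lower, with a median of -0.67 against -0.23 for all genes. Of all genes, 77.5% were called there (35.8% higher, 41.7% lower), so the number called was near the background. The split of the core clock genes was 1 and 21 with equal totals and 7 and 12 with the length trend removed, so it is steeper or flatter with the scaling. Arntl was at 896, 638 and 495 in the HD-WNT5B libraries against 3372 to 3602 in HD-Control, a log2 difference of -2.41 (limma adjusted p = 2.6e-06). Per3 differed by -2.46 (limma adjusted p = 1.6e-05) and Nr1d2, the REV-ERB beta gene, by -1.37 (limma adjusted p = 5.8e-09). Cry1 was 1 of the 2 that were higher, at 7272 to 8076 against 2716 to 2935, a difference of 1.43 (limma adjusted p = 3.5e-08). The other was Arntl2, at 0.70 (limma adjusted p = 0.0013). None of the 10 kinases and ubiquitin ligases was higher and 8 were lower, among them the casein kinase gene Csnk1e at -1.68 (limma adjusted p = 6.8e-08). In HD-WNT5B against WT-Control 21 were called, 7 higher and 14 lower, beside 77.9% of all genes (35.9% higher, 42.1% lower). The split of the core clock genes was 3 and 18 with equal totals and 9 and 10 with the length trend removed. Cry1 stood at 2.28 (limma adjusted p = 1.9e-09), Per1 at 0.84 (limma adjusted p = 6.2e-07) and Arntl at -1.54 (limma adjusted p = 5.2e-05).

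**Figure D4:**
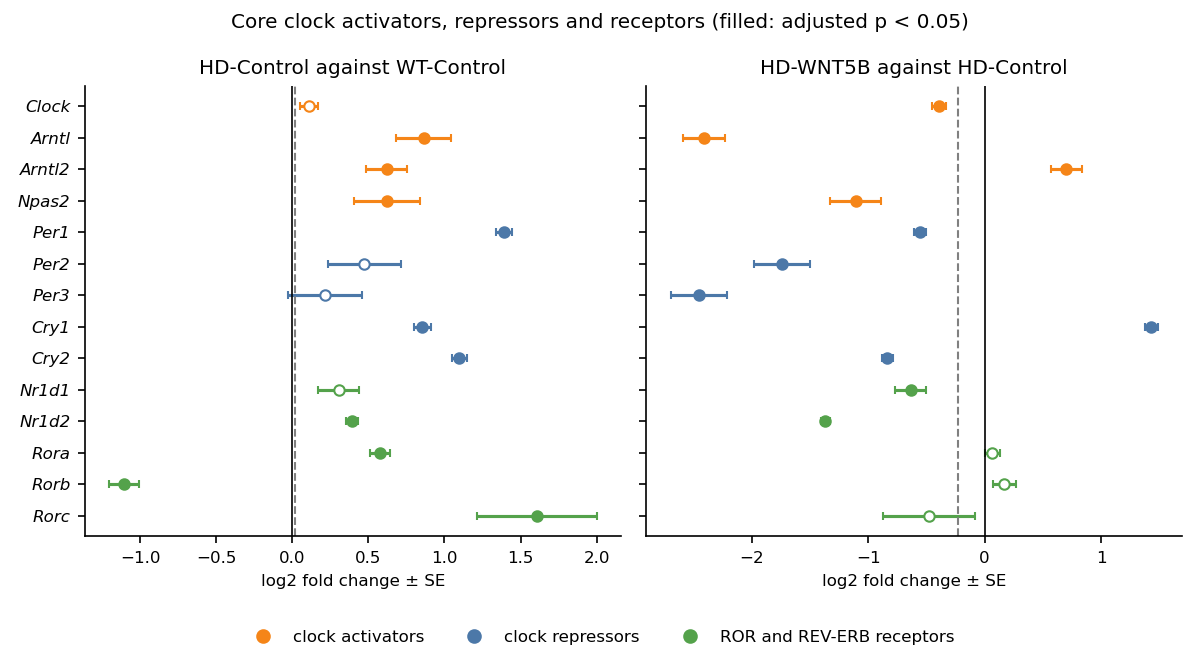
Log2 differences ± SE (horizontal axes, which differ between the panels) of the 14 core clock activators, repressors and receptors, coloured by role, filled where the limma adjusted p was under 0.05. The dashed line is the median of all genes tested. On the left 9 of the 10 called genes lie above 0, with Per1 at 1.39, and on the right 2 of the 11 called genes do, Cry1 at 1.43 and Arntl2 at 0.70.

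Genes reported elsewhere as targets of the PAR bZIP factors were few. Their counts and those of the C/EBP genes stand beside 45.1% of all genes called in HD-Control against WT-Control. The share was 77.5% in HD-WNT5B against HD-Control and 77.9% in HD-WNT5B against WT-Control. Por, which encodes the electron donor of cytochrome P450 enzymes, rose by 0.61 (limma adjusted p = 4.8e-06) and Pdxk, pyridoxal kinase, by 0.50 (limma adjusted p = 0.00018) in HD-Control against WT-Control, while Alas1 differed by 0.25 (limma adjusted p = 0.27). Pdxk shares 39.0% of its exon bases with the gene model 4921516A02Rik, and the part of reads from that model in its values was not tested. Alas1 was at 2254 to 2394 in WT-Control and 2759 to 2818 in HD-Control. The SD of its log2 values was 0.0471 and 0.0152 in these groups and 0.408 in HD-WNT5B, which the fit also takes in. In HD-WNT5B against HD-Control none of the 3 was higher and 2 were lower, Pdxk by -0.28 (limma adjusted p = 0.0019) and Alas1 by -0.81 (limma adjusted p = 0.0022). In HD-WNT5B against WT-Control 2 were higher and 1 lower. The C/EBP genes, whose proteins can bind D-box-like sequences, gave 3 higher of 4 in HD-Control against WT-Control, led by Cebpd at 3.51 (limma adjusted p = 2.8e-06). They gave 3 lower of 4 in HD-WNT5B against HD-Control, and 2 higher and 2 lower in HD-WNT5B against WT-Control.

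Other gene groups moved beside the clock outputs, and their part in the members' levels was not tested. Sums of these groups and of the cell type markers are at the deposited scale, where totals were larger in HD-WNT5B. Of all genes, 24.5% were called higher and 20.7% lower in HD-Control against WT-Control. These shares were 35.8% and 41.7% in HD-WNT5B against HD-Control, and 35.9% and 42.1% in HD-WNT5B against WT-Control. All 14 glucocorticoid-responsive genes were called higher in HD-Control against WT-Control, among them Fkbp5 by 1.61 (limma adjusted p = 4.8e-08), and their summed value was 47488 to 48065 in WT-Control, 126225 to 127521 in HD-Control and 220909 to 245660 in HD-WNT5B. Without the metallothionein genes Mt1 and Mt2, left out after their values were seen, the sums were 37196 to 37592, 96583 to 97332 and 93863 to 102310, and the last 2 groups overlapped. In HD-WNT5B against HD-Control 6 of the 14 were higher and 8 lower, with a median difference of -0.52, and against WT-Control 11 and 2. Of 12 immediate early genes, which respond to neuronal activity, 6 were higher and 6 lower in HD-Control against WT-Control, and 4 and 6 in HD-WNT5B against either group. Their sums were 44680 to 46137, 33055 to 33483 and 24604.5 to 26717.

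Cell type markers also differed between the groups, and in whole tissue fewer cells of a type and less RNA per cell cannot be told apart. Beside the marker counts, 24.5% of all genes were called higher and 20.7% lower in HD-Control against WT-Control. The shares were 35.8% and 41.7% in HD-WNT5B against HD-Control, and 35.9% and 42.1% in HD-WNT5B against WT-Control. The striatal projection neuron list, 3 of 10 higher and 7 lower in HD-Control against WT-Control, summed to 515202 to 516034 in WT-Control, 453023 to 457621 in HD-Control and 360248 to 373327 in HD-WNT5B, so the markers of the injected region were present throughout. Of 10 microglial markers none was higher and 9 were lower in HD-Control against WT-Control, and 7 were higher in HD-WNT5B against HD-Control. Their sums were 32625 to 33138, 16099 to 16136 and 49688 to 56013. In HD-WNT5B against WT-Control the list was split, with 5 higher and 4 lower of 10. Oligodendrocyte markers were 9 lower of 10 and then 6 higher and 4 lower, with sums of 475973 to 481015, 341348 to 343675 and 763313 to 809690. Astrocyte markers were 2 higher and 6 lower of 10 and then 3 higher and 5 lower, with sums of 335131 to 338337, 216107 to 217793 and 139576 to 143945. Cortical excitatory neuron markers were 8 lower of 10 and then 4 higher and 2 lower, with sums of 32386.5 to 33383, 16916 to 17134 and 37561 to 41112. Endothelial and mural markers were 7 lower of 10 and then 6 higher and 4 lower, with sums of 29745.5 to 30167, 19879 to 20001 and 49954 to 59419.5. Choroid plexus and ependymal markers were 1 higher of 10 and then 8 higher and 1 lower, with sums of 2869 to 2945, 2981 to 3055 and 16958 to 19739, and Kcnj13 was at 0 in an HD-WNT5B library. The 5 blood markers were all lower and then 4 higher, with sums of 3224 to 3286, 958 to 1030.0 and 10616 to 13197. No other marker was at 0 in any library. In HD-WNT5B against WT-Control the markers called higher and lower were 2 and 7 for striatal projection neurons and 6 and 4 for oligodendrocytes. They were 3 and 6 for astrocytes, 3 and 7 for cortical excitatory neurons and 4 and 6 for endothelial and mural cells. Choroid plexus and ependyma had 8 and 1, and blood 3 and 1.

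By root mean square difference of centred log2 values over the 9 libraries, among 12748 genes whose mean reached 100, the profiles nearest to Dbp were those of Tomm40l (0.0561), Syn1 (0.0683), Dusp3 (0.0701) and Gpr89 (0.0836). Dusp3, for example, had group means of 12351, 6867 and 19591 in the order WT-Control, HD-Control and HD-WNT5B. Nearest to Tef were Slc45a1 (0.0287), Kat14 (0.0381), Lmo3 (0.0397) and Klhl12 (0.0475), and Lmo3 had means of 10926, 16436 and 24665. Nearest to Ciart, at larger distances, were Bmf (0.153), Iffo2 (0.161), Pcsk7 (0.169) and Rbak (0.185), and Pcsk7 had means of 2157, 4823 and 1595. None of the 24 core clock genes was among these.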

How the data were processed

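The deposited signal values are decimals, 1 for each protein-coding gene in each library. They behave as estimated reads multiplied by 1 factor per library (a value of 0.616 to 2.14 per read), with no division by length. Reads were aligned with STAR to mm10, per the submitters' processing notes. The counting and normalizing programs, their annotation and the versions of all tools were not given in the sources used here. GENCODE M21 held all 21853 identifiers and gave symbols, positions and transcript lengths.

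The filter asked for a value of 10 or more in 3 or more libraries and left 15411 genes. Log2(value + 3) was fitted with limma 3.58.1 in R 4.3.3, with 1 mean for each group, all 9 libraries together (6 residual degrees of freedom), a variance trend and Benjamini-Hochberg adjustment over all genes, called under 0.05. The planned count test was not run, because the values include fractions of a read. The code was tested on simulated data. Promoters came from RefSeq (GRCm38.p6).

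The members and lists were chosen with earlier results of these data known. Named are all 8 members, up to 4 genes of each list and comparison with the smallest p, and the 4 nearest profiles of Dbp, Tef and Ciart. Alternatives covered scaling, pseudocounts of 1 and 10, filters, weights, a replicate block, transcript length, 2-group fits and each library left out. A gene of the core clock lists enters the counts and is not reported here by name.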

Additional observations from a re-analysis of the deposited data

How the results depend on the processing

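The number of genes called in HD-Control against WT-Control was 6957 with 1 spread for all groups, 12779 with a weight per group and 12908 when only these groups were fitted, both of which keep the scatter of the HD-WNT5B libraries out of the comparison. The call counts of the 3 comparisons, of the 8 clock outputs and of the 24 core clock genes stayed within 1.5 times under all other alternatives run. With 1 library left out, genes called ranged from 5512 to 8954 in HD-Control against WT-Control, from 11156 to 12587 in HD-WNT5B against HD-Control and from 11286 to 12676 in HD-WNT5B against WT-Control. Clock outputs called ranged from 6 to 8, 7 to 8 and 6 to 7, and core clock genes from 14 to 20, 19 to 21 and 19 to 22. Of 176 log2 differences of the clock outputs per comparison, 16, 21 and 26 moved by more than the spread between replicates, and Bhlhe41 changed sign with the length trend removed, to 0.0305 against HD-Control and 0.36 against WT-Control. In HD-WNT5B against WT-Control 46.0% of the genes called were higher, 31.8% with equal totals and 55.6% with the length trend removed.

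With the replicate number as a block, 6402, 11782 and 11891 genes, 7, 7 and 6 clock outputs, and 17, 19 and 21 core clock genes were called. Deviations of libraries with the same number correlated at -0.078 to 0.02 and those with different numbers at -0.063 to 0.094. No pairing by number was thus seen in these values, which cannot show whether libraries of the same number were handled together. Setting equal medians and subtracting the median gene were chosen after seeing the data. The count test on whole reads was not run. Depth limits Nfil3 most, with 58 estimated reads in the library where it had the fewest.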
